A study of Homo sapiens with 9 samples.

Results

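The proteasome genes examined here are the subunits of the 20S core, the immunoproteasome, the 19S regulatory particle, the proteasome activators and the transcription factor NFE2L1. They were chosen by gene symbol, through the Ensembl identifier of each row of the count table. The rule used no measured value, but the genes were listed with earlier results of these data known. Of 40 listed genes, 39 were matched by identifier to a row of the table, which has 60234 gene identifiers, of which 39539 were matched to a symbol. PSMB3 was not matched and is not analysed here. All 39 passed the filter on low counts and were tested together with 15847 genes in all.

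RNA was sequenced from Ramos cells, a human B cell line derived from an Epstein-Barr virus-negative Burkitt lymphoma. CHIR99021 is a small-molecule inhibitor of glycogen synthase kinase 3 (GSK-3), a kinase that marks many proteins for ubiquitination. The 3 groups were untreated cells (0 h), cells kept for 3 h in 3 µM CHIR99021 and cells kept for 6 h in 3 µM CHIR99021, with 3 libraries labelled as biological replicates in each. No culture kept for 3 h or 6 h without the compound was measured, so the effects of the compound and of time in culture cannot be told apart, and all libraries come from 1 cell line. The p-values measure the spread between these libraries.

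The proteasome degrades proteins that carry ubiquitin chains. Its 20S core is a barrel in which outer rings of alpha subunits gate the entry and inner rings of beta subunits hold the protease sites; lymphoid cells and cells exposed to interferon replace the catalytic beta subunits with immunoproteasome counterparts. The 19S particle binds the ends of the barrel, where its ATPases unfold substrates and its non-ATPase subunits bind and remove ubiquitin. Other activators open the gate without ubiquitin, and NFE2L1 is known to switch on proteasome subunit genes when proteasome activity falls.

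Reads in genes numbered 46359911 to 52880876 per library, and counts are given as CPM (a read count relative to the library total, on the usual scale of edgeR) after scaling of the libraries by the trimmed mean of M-values (TMM). All 7 B cell markers were above 1 CPM in every group, with a summed level of 2574 to 2812 CPM. The summed level was at most 0.172 CPM for T and NK cell markers, 0.185 CPM for myeloid markers and 0.0219 CPM for epithelial and fibroblast markers, so the defining markers of those cells were at or near 0. The replicates of a group were unequally alike: untreated replicate 3 differed from untreated replicates 1 and 2 with a chi-square per degree of freedom of 32.6 and 29.2, against 1.75 between replicates 1 and 2 and 2.74 to 13.95 between treated replicates. Relative to the mean over all libraries, genes of 1000 bases stood 0.147 above genes of 4000 bases on the log2 scale in untreated replicate 3, and the same difference was -0.0599 and -0.0508 in untreated replicates 1 and 2. It was -0.102 to -0.0180 at 3 h and 0.0146 to 0.0826 at 6 h. The matching difference between GC-rich and GC-poor genes was 0.0956 to 0.221 at 0 h and -0.148 to -0.00475 in the treated libraries. These trends therefore differed between groups too. Untreated replicate 3 was the highest of the untreated libraries in 35 of 39 proteasome genes, and 6 h replicate 10 was the lowest of its group in 38 of 39.

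Most proteasome genes had more RNA after CHIR99021. At 3 h, 30 of 39 were higher than at 0 h and 2 were lower, and at 6 h, 35 were higher than at 0 h and 2 were lower (edgeR quasi-likelihood test, Benjamini-Hochberg adjusted p under 0.05). Among all genes tested, 32.8% were higher and 33.5% lower at 3 h (66.3% in either direction), and 35.7% were higher and 35% lower at 6 h (70.8% in either direction). The median log2 fold change of the 39 genes was 0.34 at 3 h and 0.62 at 6 h, beside -0.01 and 0.02 for all genes tested. The 19S genes had the larger changes, with a median of 0.88 at 6 h over 18 genes. The 13 constitutive 20S genes had a median of 0.54. Of the 3 immunoproteasome subunits, 1 was higher and 1 lower at 6 h, and NFE2L1 was lower. In bulk RNA, a change in the kinds of cells and a change in RNA per cell cannot be told apart.

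**Figure D1:**
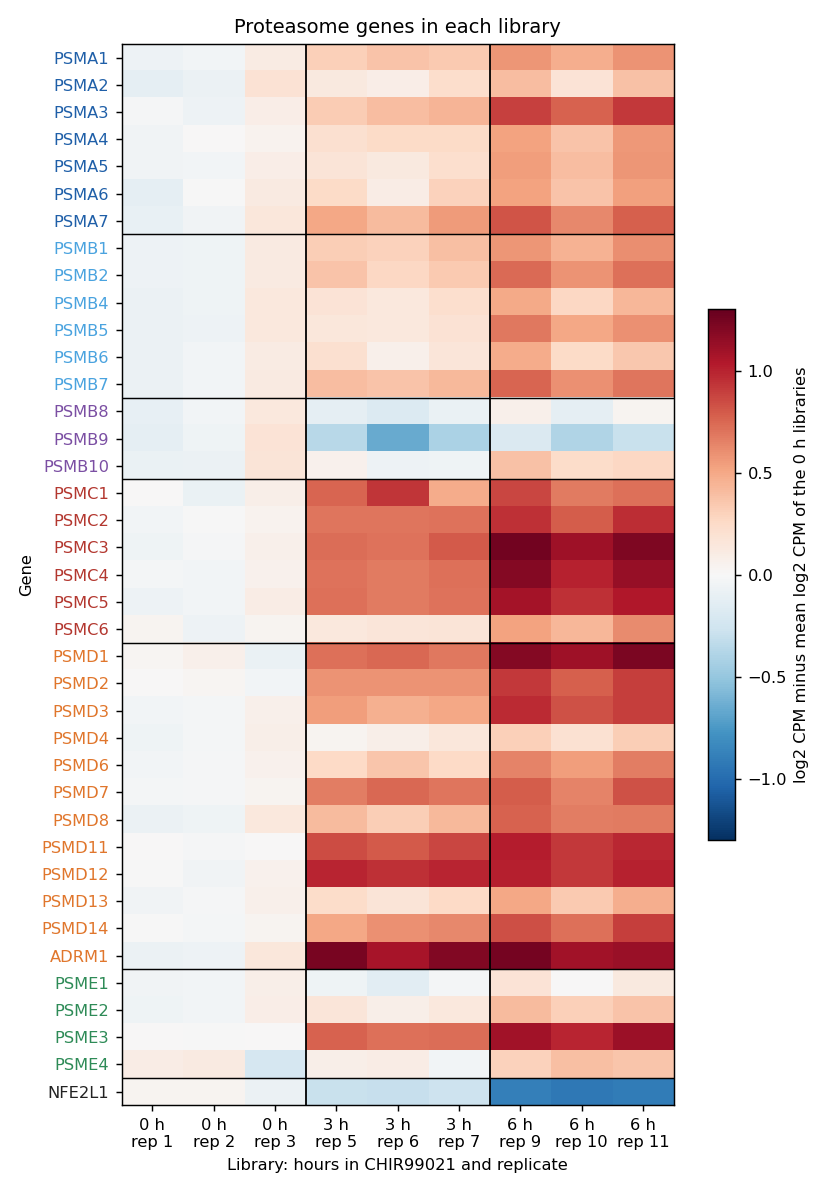
Level of each proteasome gene in each library, as log2 CPM minus the mean log2 CPM of the 0 h libraries (red higher, blue lower), with blocks from top to bottom for alpha ring, beta ring, immunoproteasome, 19S ATPases, 19S non-ATPase subunits, activators and NFE2L1. The 19S block and PSME3 are the reddest at 3 h and 6 h, PSMB9 and NFE2L1 are blue at both times, and 6 h replicate 10 is paler than replicates 9 and 11 in most rows.

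The change went on between 3 h and 6 h. At 6 h, 31 of 39 genes were higher than at 3 h and 1, NFE2L1, was lower, with a median log2 fold change of 0.25; among all genes tested, 21.5% were higher and 21.9% lower, 43.4% in either direction (edgeR, adjusted p under 0.05). A test for any difference among the 3 times passed for 38 of 39 genes, or 97.4%, against 77.7% of all genes tested, and the remaining gene was PSMB8. Libraries of the groups did not overlap, with the later group higher, for 27 genes at 3 h against 0 h, 34 at 6 h against 0 h and 31 at 6 h against 3 h. The same held for 34.8%, 36.2% and 27.2% of all genes tested. Summed over the 39 genes, they took a share of the reads in genes of 0.499% ± 0.021 at 0 h, 0.557% ± 0.00777 at 3 h and 0.638% ± 0.0183 at 6 h (SD, n = 3 each).

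Which genes count as higher depends on how libraries are scaled. With upper-quartile factors the median of all genes tested moved to -0.17 at 3 h and -0.13 at 6 h, and with library size alone to -0.22 at both times. All calls then split into 3852 higher and 6854 lower at 3 h and 4352 higher and 6736 lower at 6 h with upper-quartile factors, and into 3468 and 7451 at 3 h and 3656 and 7504 at 6 h with library size alone, against 5201 and 5304 at 3 h and 5660 and 5553 at 6 h with TMM. Proteasome genes called higher numbered 22 at 3 h and 32 at 6 h with upper-quartile factors, and 19 and 30 with library size alone. Relative to the median of all genes tested, their median was 0.35 at 3 h and 0.60 at 6 h under TMM, upper-quartile factors and library size alone. A change of scaling moves all genes by nearly the same amount, so this agreement was fixed in advance. It does not tell which scaling is right. Without untreated replicate 3, 33 proteasome genes were higher at 3 h and 36 at 6 h, with medians of 0.39 and 0.66. Of all 16045 genes tested without that library, 5318 were higher at 3 h and 5780 at 6 h, with medians of -0.0075 and 0.0079.

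**Figure D2:**
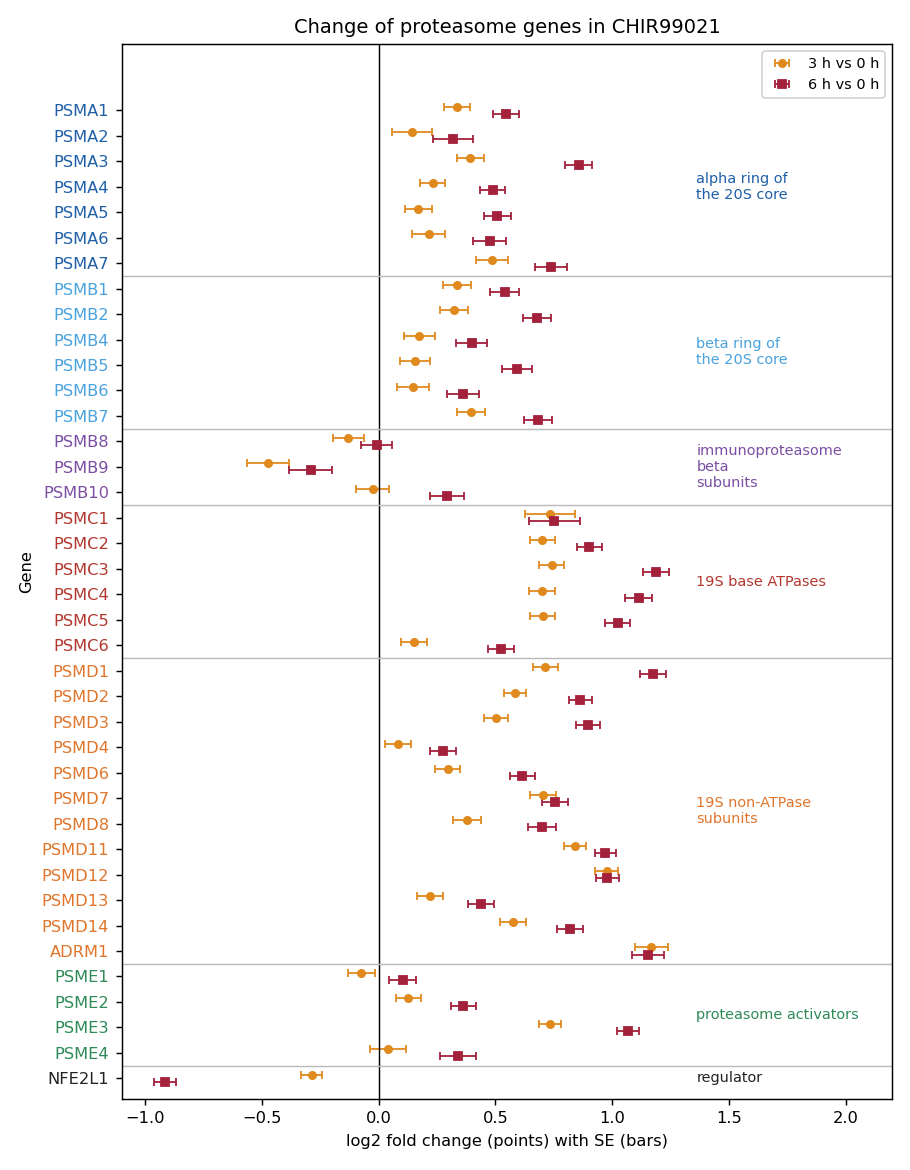
Log2 fold change of each proteasome gene at 3 h (circles) and 6 h (squares) against 0 h, with bars for SE from the edgeR fit, grouped by role. The 19S genes reach 1.19 at 6 h, PSMB8 lies at -0.01, PSMB9 lies below 0 at both times, and NFE2L1 lies at -0.91 at 6 h.

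The promoters of 6 genes show the sequence context of genes that moved together, of the gene that moved the other way and of the gene that moved least. PSMC3, PSMD1, ADRM1 and PSMC4 had the largest increases at 6 h, NFE2L1 fell, and PSMB8 had the smallest change. Each line gives 250 bases before and 50 bases from the annotated start of the gene, 5′ to 3′ on the strand of the gene, from RefSeq on GRCh38.p14. Capitals mark matches to 2 patterns searched on both strands: TGACNNNGC, the core of the antioxidant response element that NFE2L1 binds with small MAF partners, and ATTGG or its complement CCAAT, the box bound by NF-Y.
PSMC3 (chr11:47426390-47426689, minus strand): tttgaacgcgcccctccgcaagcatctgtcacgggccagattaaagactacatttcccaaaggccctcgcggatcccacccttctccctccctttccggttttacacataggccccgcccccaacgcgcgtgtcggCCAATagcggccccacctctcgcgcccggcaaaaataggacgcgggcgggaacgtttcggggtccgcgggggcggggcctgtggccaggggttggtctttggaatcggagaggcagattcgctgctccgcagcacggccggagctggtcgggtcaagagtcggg
PSMD1 (chr2:231056617-231056916, plus strand): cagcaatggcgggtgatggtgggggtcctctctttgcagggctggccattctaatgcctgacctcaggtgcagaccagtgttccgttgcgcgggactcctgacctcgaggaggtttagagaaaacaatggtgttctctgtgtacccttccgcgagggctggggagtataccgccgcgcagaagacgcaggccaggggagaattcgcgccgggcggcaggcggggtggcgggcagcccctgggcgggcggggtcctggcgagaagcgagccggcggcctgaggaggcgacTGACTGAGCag
ADRM1 (chr20:62302646-62302945, plus strand): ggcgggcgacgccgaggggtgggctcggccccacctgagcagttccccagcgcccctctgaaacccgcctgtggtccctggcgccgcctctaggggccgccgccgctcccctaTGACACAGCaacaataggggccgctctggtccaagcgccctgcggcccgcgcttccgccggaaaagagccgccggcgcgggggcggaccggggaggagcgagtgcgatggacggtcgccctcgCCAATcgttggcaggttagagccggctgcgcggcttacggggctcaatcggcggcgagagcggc
PSMC4 (chr19:39970915-39971214, plus strand): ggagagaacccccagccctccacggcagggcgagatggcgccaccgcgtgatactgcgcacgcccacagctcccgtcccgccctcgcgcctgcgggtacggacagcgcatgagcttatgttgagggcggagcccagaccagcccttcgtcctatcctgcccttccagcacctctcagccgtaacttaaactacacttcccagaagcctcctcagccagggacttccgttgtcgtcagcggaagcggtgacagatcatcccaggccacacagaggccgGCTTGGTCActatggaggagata
NFE2L1 (chr17:48048109-48048408, plus strand): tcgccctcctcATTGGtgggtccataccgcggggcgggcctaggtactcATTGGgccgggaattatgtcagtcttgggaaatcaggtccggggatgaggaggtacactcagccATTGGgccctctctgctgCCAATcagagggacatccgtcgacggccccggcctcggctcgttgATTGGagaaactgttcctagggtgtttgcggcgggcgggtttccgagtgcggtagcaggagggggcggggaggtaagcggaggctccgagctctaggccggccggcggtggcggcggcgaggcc
PSMB8 (chr6:32844630-32844929, minus strand): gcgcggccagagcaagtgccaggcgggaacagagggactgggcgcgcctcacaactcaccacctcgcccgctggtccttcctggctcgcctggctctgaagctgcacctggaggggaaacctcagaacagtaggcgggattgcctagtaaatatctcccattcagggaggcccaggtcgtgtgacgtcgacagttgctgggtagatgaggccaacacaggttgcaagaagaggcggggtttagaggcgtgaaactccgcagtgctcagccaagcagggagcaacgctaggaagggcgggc

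Of the 40 listed genes, 35 had a promoter in the RefSeq table, PSMB3 among them, and PSMA7, PSMB1, PSMB6, PSMB7 and PSMD4 had no entry. TGACNNNGC was present in 10 of 35 promoters, or 28.6%, against 13.6% of 27305 promoters of the same length. They were those of PSMB3, PSMB9, PSMC4, PSMD1, PSMD3, PSMD12, ADRM1, PSME1, PSME2 and PSME4. Of these, PSMC4, PSMD1, PSMD3, PSMD12, ADRM1, PSME2 and PSME4 were higher at 6 h than at 0 h, and PSMB9 was lower. PSME1 did not pass the test at 3 h or 6 h, and PSMB3 was not analysed. Of all 39 genes, 35 were higher at 6 h, and a link between match and change was not tested. In PSMD1 the match begins at base 40 and in PSMC4 at base 28, counted from the start of the gene as 1, inside the transcribed sequence. ATTGG was present in 18 of 35, or 51.4%, against 35.7% of all promoters, with 5 matches in NFE2L1 alone. GAAANNGAA, the core of the interferon-stimulated response element, was present in 6 of 35, or 17.1%, against 8.29%. The matches were in PSMA4, PSMB4, PSMB10, PSMC2, PSME1 and PSME2, and the immunoproteasome genes PSMB8 and PSMB9 had none. CACGTG, the E-box bound by MYC and related factors, was present in 2 of 35, or 5.71%, against 7.43%, in PSMB3 and PSME3. GAANNTTC, 2 units of the heat shock element, was present in 0 of 35, against 6.87%. The 27305 promoters belong to all genes with an entry, expressed in these cells or not. They were not matched to the 35 in base composition, so the shares come from unlike sets. A match is a string of letters and not a bound site, and a promoter without one lacks these letters in this window only.

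The alpha ring, whose N-terminal tails close the entry of the core, had more RNA after treatment. All 7 alpha genes were higher at 6 h, with log2 fold changes from 0.32 to 0.86 and a median of 0.51, and 6 of 7 were higher at 3 h with a median of 0.23. PSMA3 had the largest change. It was measured at 71.7, 69.2 and 77 CPM at 0 h, 91, 96.1 and 98.9 CPM at 3 h and 134, 123 and 137 CPM at 6 h. Every 3 h library lay above every 0 h library and below every 6 h library. This gave a log2 fold change of 0.39 (SE 0.06) at 3 h and of 0.86 (SE 0.06) at 6 h, both against 0 h (edgeR adjusted p = 4.13e-05 and 1.26e-08). PSMA7 had 174, 181 and 206 CPM at 0 h, 264, 248 and 273 CPM at 3 h and 328, 288 and 320 CPM at 6 h. Its groups did not overlap either, and its log2 fold change was 0.48 (SE 0.07) at 3 h and 0.74 (SE 0.07) at 6 h (edgeR adjusted p = 2.81e-05 and 3.65e-07).

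PSMA2 had the smallest change of the ring. It had 17.7, 18.2 and 21.9 CPM at 0 h, 21, 20.3 and 22.4 CPM at 3 h and 25.3, 21.7 and 25 CPM at 6 h. Untreated replicate 3 lay among the 3 h libraries, and above 6 h replicate 10. Its log2 fold change at 3 h was 0.14 (SE 0.09, edgeR adjusted p = 0.16), which was -0.06 with library size alone and passed without untreated replicate 3 (adjusted p = 0.00551), and at 6 h it was 0.32 (SE 0.09, edgeR adjusted p = 0.0043), a call lost with upper-quartile factors (adjusted p = 0.104) and with library size alone (adjusted p = 0.414). PSMA1, PSMA4, PSMA5 and PSMA6 had log2 fold changes of 0.17 to 0.34 at 3 h and 0.48 to 0.55 at 6 h. The calls of PSMA4, PSMA5 and PSMA6 at 3 h were lost with upper-quartile factors and with library size alone, where PSMA4 was at 0.03, PSMA5 at -0.03 and PSMA6 at 0.01. Those of PSMA4 and PSMA5 were also lost with length and GC trends removed. PSMA6 also has pseudogenes that held reads equal to 74.2% of its own, so its count is uncertain; the main one, PSMA6P1, averaged 41.9 CPM at 0 h, 48.9 CPM at 3 h and 60.7 CPM at 6 h.

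In the beta ring, all 6 measured constitutive genes were higher at 6 h, with a median log2 fold change of 0.57, and 5 of 6 were higher at 3 h, with a median of 0.25. PSMB7, the subunit with trypsin-like activity, had the largest change of the ring at 6 h. It was measured at 92, 94.4 and 105 CPM at 0 h, 128, 125 and 130 CPM at 3 h and 164, 147 and 157 CPM at 6 h. The groups did not overlap at any of the 3 comparisons, and the log2 fold change was 0.40 (SE 0.06) at 3 h and 0.68 (SE 0.06) at 6 h (edgeR adjusted p = 4.25e-05 and 1.54e-07). PSMB2, a structural subunit of the ring, had 138, 139 and 156 CPM at 0 h, 186, 173 and 182 CPM at 3 h and 239, 216 and 236 CPM at 6 h. These groups were also apart, with a log2 fold change of 0.32 (SE 0.06) at 3 h and 0.68 (SE 0.06) at 6 h (edgeR adjusted p = 0.000264 and 1.72e-07). Its call at 3 h was lost with library size alone (0.12, edgeR adjusted p = 0.0706).

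PSMB5, which carries the chymotrypsin-like site and is the main target of proteasome inhibitor drugs, rose mainly after 3 h. Its libraries held 73.8, 74.5 and 85.8 CPM at 0 h, 86.2, 85.9 and 88.9 CPM at 3 h and 125, 111 and 118 CPM at 6 h. The lowest 3 h library stood only just above untreated replicate 3, and the 6 h libraries stood well above both groups. The log2 fold change was 0.16 (SE 0.06) at 3 h with an edgeR adjusted p of 0.0446, a call that DESeq2 did not make (adjusted p = 0.0544), and it was -0.05 with library size alone. It was 0.59 (SE 0.06) at 6 h against 0 h and 0.44 (SE 0.06) at 6 h against 3 h (edgeR adjusted p = 1.5e-06 and 0.00011). PSMB6, the subunit with caspase-like activity, had 44.8, 46.2 and 51 CPM at 0 h, 54.7, 49.6 and 52.9 CPM at 3 h and 66, 56.3 and 60.1 CPM at 6 h. The 3 h libraries overlapped the 0 h libraries and the 6 h libraries did not. Its log2 fold change was 0.15 (SE 0.07) at 3 h, with a 95% interval of -0.00 to 0.29, and 0.36 (SE 0.07) at 6 h (edgeR adjusted p = 0.0737 and 0.0003), and the value at 3 h was below 0 with upper-quartile factors and with library size alone. The call at 6 h was lost with library size alone (0.12, edgeR adjusted p = 0.105), and PSMB6 passed as higher at 3 h with length and GC trends removed (0.22, edgeR adjusted p = 0.000176). PSMB1 and PSMB4, structural subunits, had log2 fold changes of 0.34 and 0.17 at 3 h and 0.54 and 0.40 at 6 h, and at 3 h with library size alone neither passed, at 0.13 for PSMB1 and -0.03 for PSMB4. PSMB4 did not pass at 3 h with upper-quartile factors either.

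Each of the 3 immunoproteasome subunits had a lower log2 fold change than its constitutive counterpart at 3 h and at 6 h, both against 0 h. Of the 3, none was higher and 1 was lower at 3 h, and 1 was higher and 1 was lower at 6 h. PSMB8, the counterpart of PSMB5, had 131, 138 and 155 CPM at 0 h, 131, 124 and 133 CPM at 3 h and 147, 130 and 144 CPM at 6 h. All groups overlapped. The log2 fold change was -0.13 (95% interval -0.27 to 0.01) at 3 h and -0.01 (95% interval -0.15 to 0.13) at 6 h (edgeR adjusted p = 0.103 and 0.915); the value at 6 h passed as lower with library size alone (-0.25, adjusted p = 0.0042), and the value at 3 h passed as lower with upper-quartile factors (adjusted p = 0.00243), with library size alone (adjusted p = 0.000568) and without untreated replicate 1 (adjusted p = 0.0276).

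PSMB9, the counterpart of PSMB6, was the immunoproteasome gene that fell. It was measured at 103, 107 and 126 CPM at 0 h, 86.9, 70.9 and 83.9 CPM at 3 h and 97.9, 85 and 91.2 CPM at 6 h. Both treated groups lay below every 0 h library and overlapped each other. PSMB9 had a log2 fold change of -0.47 (SE 0.09) at 3 h and -0.29 (SE 0.09) at 6 h (edgeR adjusted p = 0.000565 and 0.0124), and the call at 6 h did not pass without 6 h replicate 10 (-0.24, edgeR adjusted p = 0.0602). PSMB10, the counterpart of PSMB7, had 38.8, 39.1 and 46.4 CPM at 0 h, 43, 39.4 and 39.6 CPM at 3 h and 53.8, 48.5 and 49.8 CPM at 6 h. Only the 6 h group stood apart, with a log2 fold change of -0.03 (SE 0.07) at 3 h and 0.29 (SE 0.07) at 6 h (edgeR adjusted p = 0.763 and 0.00227). Between 3 h and 6 h its log2 fold change was 0.32 (SE 0.07, edgeR adjusted p = 0.00273), beside 0.29 for PSMB7. With trends over transcript length and GC content removed, PSMB10 was higher at 3 h, at 0.14 (edgeR adjusted p = 0.00511), and without untreated replicate 3 it was at 0.06. With library size alone it was lower at 3 h, at -0.23 (edgeR adjusted p = 0.013). At 6 h its call was lost with upper-quartile factors and with library size alone.

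PSMB8, PSMB9 and PSMB10 overlap other annotated genes, and whether the counting used strand is not given in the sources used here. PSMB8-AS1, an antisense transcript over 20.6% of the exon bases of PSMB8, averaged 26.2 CPM at 0 h, 8.78 CPM at 3 h and 11.5 CPM at 6 h. An unnamed coding gene, ENSG00000261884, overlaps 34.8% of the exon bases of PSMB10 on the same strand. Their part in the values of PSMB8 and PSMB10 was not tested.

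Ratios between reads of 2 genes in 1 library do not depend on how libraries are scaled. They were chosen after the values were seen, they are not corrected for gene length, and they are compared between groups only. PSMB8 reads per PSMB5 read were 1.78, 1.85 and 1.81 at 0 h, 1.51, 1.45 and 1.50 at 3 h and 1.18, 1.18 and 1.23 at 6 h. PSMB9 reads per PSMB6 read averaged 2.36 ± 0.0995 at 0 h, 1.53 ± 0.0911 at 3 h and 1.50 ± 0.0179 at 6 h (SD, n = 3 each). PSMB10 reads per PSMB7 read averaged 0.426 ± 0.0135 at 0 h, 0.318 ± 0.0152 at 3 h and 0.325 ± 0.00698 at 6 h (SD, n = 3 each). In all 3 pairs, the immunoproteasome share was lower in every treated library than in every untreated one, for PSMB8 it was lower again at 6 h than at 3 h, and for the other pairs the 3 h and 6 h libraries overlapped. The exact permutation p was 0.1 for each of these comparisons with 0 h, the smallest that 3 against 3 libraries can give (two-sided, n = 3 each).

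**Figure D3:**
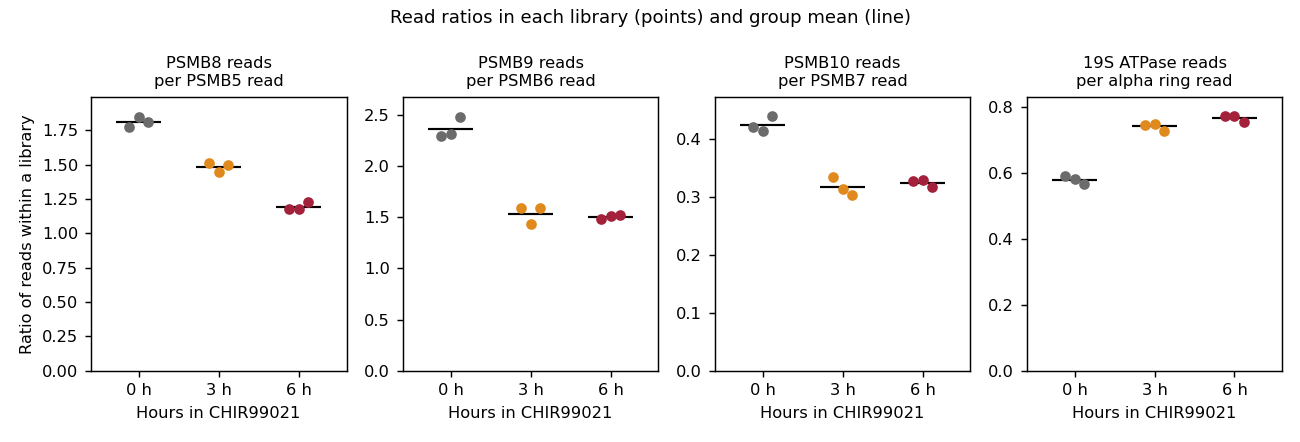
Ratio of reads between 2 genes or gene groups within each library (points) by hours in CHIR99021, with lines for the group mean. The 3 immunoproteasome ratios are lower in all treated libraries than at 0 h, and 19S ATPase reads per alpha ring read are higher, at 0.742 at 3 h and 0.768 at 6 h against 0.581 at 0 h.

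The 19S ATPases, which form the ring that unfolds substrates and feeds them into the core, rose at both times. All 6 were higher at 3 h and at 6 h, with median log2 fold changes of 0.70 and 0.96. PSMC3 had the largest increase of all 39 genes at 6 h. It was measured at 88.3, 90.7 and 95.6 CPM at 0 h, 151, 149 and 159 CPM at 3 h and 218, 196 and 212 CPM at 6 h. No groups overlapped, and the level was 1.67-fold higher at 3 h and 2.28-fold higher at 6 h than at 0 h. As log2 fold changes these are 0.74 (SE 0.05) and 1.19 (SE 0.05), with edgeR adjusted p = 3.45e-08 and 2.65e-10. PSMC4 had 63.1, 62.8 and 66.8 CPM at 0 h, 105, 102 and 106 CPM at 3 h and 147, 129 and 141 CPM at 6 h. Its groups were apart at each step, with log2 fold changes of 0.70 (SE 0.06) at 3 h and 1.11 (SE 0.06) at 6 h (edgeR adjusted p = 8.18e-08 and 6.13e-10).

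PSMC6 was the ATPase with the smallest change. It had 40.3, 37.5 and 40.4 CPM at 0 h, 43.2, 43.8 and 44.1 CPM at 3 h and 56.6, 53.3 and 60 CPM at 6 h. The 3 h libraries lay narrowly above 0 h and the 6 h libraries well above both. Its log2 fold change was 0.15 (SE 0.06) at 3 h, at -0.05 with library size alone, and 0.52 (SE 0.06) at 6 h (edgeR adjusted p = 0.0277 and 1.11e-06). The other ATPases PSMC1, PSMC2 and PSMC5 stood at 0.70 to 0.73 at 3 h and at 0.75, 0.90 and 1.02 at 6 h. PSMC5 shares 19.5% of its exon bases with FTSJ3 on the opposite strand, which itself averaged 51.3 CPM at 0 h, 83.2 CPM at 3 h and 142 CPM at 6 h.

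The count of PSMC1 is uncertain. PSMC1 averaged only 4.74 CPM at 0 h, 7.87 CPM at 3 h and 7.98 CPM at 6 h, while its pseudogenes held 1537% of its reads and NRDE2 covers 75.8% of its exon bases on the opposite strand. PSMC1P1, the pseudogene with most of those reads, averaged 70.3 CPM at 0 h, 116 CPM at 3 h and 129 CPM at 6 h. With the pseudogene reads added to PSMC1, an alternative chosen after the data were seen, its log2 fold change was 0.73 at 3 h and 0.87 at 6 h, beside 0.73 and 0.75 without them.

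The 12 non-ATPase subunits of the 19S particle, which receive ubiquitin chains and hold the particle together, were all higher at 6 h, with log2 fold changes from 0.27 to 1.17 and a median of 0.84. At 3 h, 11 of 12 were higher, with a median of 0.58. PSMD1, the largest scaffold subunit of the 19S base, had 95.9, 99.1 and 88.8 CPM at 0 h, 155, 158 and 152 CPM at 3 h and 217, 203 and 221 CPM at 6 h. The groups did not overlap at either step, and the log2 fold change was 0.71 (SE 0.05) at 3 h and 1.17 (SE 0.05) at 6 h (edgeR adjusted p = 4.49e-08 and 2.64e-10). ADRM1, a ubiquitin receptor that also holds the deubiquitinase UCHL5, had 73.5, 74 and 85.8 CPM at 0 h, 183, 163 and 179 CPM at 3 h and 184, 165 and 169 CPM at 6 h. The 3 h and 6 h libraries overlapped, and both stood far above 0 h. ADRM1 had the largest increase of the 39 genes at 3 h, 1.17 (SE 0.07) on the log2 scale and 2.25-fold, and stood at 1.15 (SE 0.07) at 6 h (edgeR adjusted p = 4.76e-09 and 3.76e-09). It shares 11.4% of its exon bases with LAMA5 on the opposite strand, which averaged 50.4 CPM at 0 h, 47.5 CPM at 3 h and 33.1 CPM at 6 h.

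PSMD4, another ubiquitin receptor, changed least among the non-ATPase subunits. It had 93.1, 95.1 and 102 CPM at 0 h, 99, 102 and 107 CPM at 3 h and 120, 111 and 121 CPM at 6 h. The 3 h libraries overlapped 0 h and the 6 h libraries did not. Its change on the log2 scale was 0.08 (SE 0.06, edgeR adjusted p = 0.197) at 3 h, which was -0.12 with library size alone and passed without untreated replicate 3 (adjusted p = 0.0383), and 0.27 (SE 0.06, edgeR adjusted p = 0.00052) at 6 h, which did not pass with upper-quartile factors (adjusted p = 0.0526) or with library size alone (adjusted p = 0.532).

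The 19S genes differed in their change between 3 h and 6 h. ADRM1, PSMC1, PSMD7 and PSMD12 did not differ between 6 h and 3 h beyond the threshold, and the 3 h and 6 h libraries of each overlapped. PSMD12, a lid subunit, had 49.5, 48 and 51.5 CPM at 0 h, 98.5, 95.8 and 98.7 CPM at 3 h and 100, 93.9 and 99.6 CPM at 6 h. Its level at both times was 1.97-fold that at 0 h, and the log2 fold change between 6 h and 3 h was 0.00, with a 95% interval of -0.10 to 0.11 (edgeR adjusted p = 0.965). For ADRM1 the interval was -0.16 to 0.13, and for PSMD7, a lid subunit that pairs with PSMD14, -0.07 to 0.17. For PSMC1, whose count is uncertain, the interval was wider, -0.21 to 0.25, and does not settle whether the gene rose further. In the remaining 14 of 18 genes the level at 6 h was above that at 3 h, by 0.13 for PSMD11 to 0.46 for PSMD1 on the log2 scale. The call of PSMD11 was lost with library size alone (0.10, edgeR adjusted p = 0.0562). PSMD14, the deubiquitinase of the lid, had log2 fold changes of 0.57 at 3 h and 0.82 at 6 h, PSMD2 had 0.58 and 0.86, PSMD3 had 0.50 and 0.90, PSMD6 had 0.29 and 0.62, PSMD8 had 0.38 and 0.70, PSMD11 had 0.84 and 0.97, and PSMD13 had 0.22 and 0.44. At 3 h the call of PSMD13 was lost with upper-quartile factors (0.07) and with library size alone (0.02), and that of PSMD6 with library size alone (0.09).

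Reads of the 6 ATPase genes per read of the 7 alpha ring genes give the 19S and 20S changes within a library. The ratio was 0.591, 0.583 and 0.567 at 0 h, 0.748, 0.751 and 0.728 at 3 h and 0.774, 0.775 and 0.756 at 6 h. Every treated library lay above every untreated one and the 6 h libraries lay narrowly above the 3 h libraries; the exact permutation p was 0.1 for each comparison (two-sided, n = 3 each). Summed CPM of the ATPase genes was 1.59-fold that of 0 h at 3 h and 2.01-fold at 6 h. For the alpha ring it was 1.24-fold and 1.52-fold, for the constitutive beta ring 1.21-fold and 1.47-fold, for the non-ATPase subunits 1.49-fold and 1.76-fold, and for the immunoproteasome subunits 0.85-fold and 0.959-fold.

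**Figure D4:**
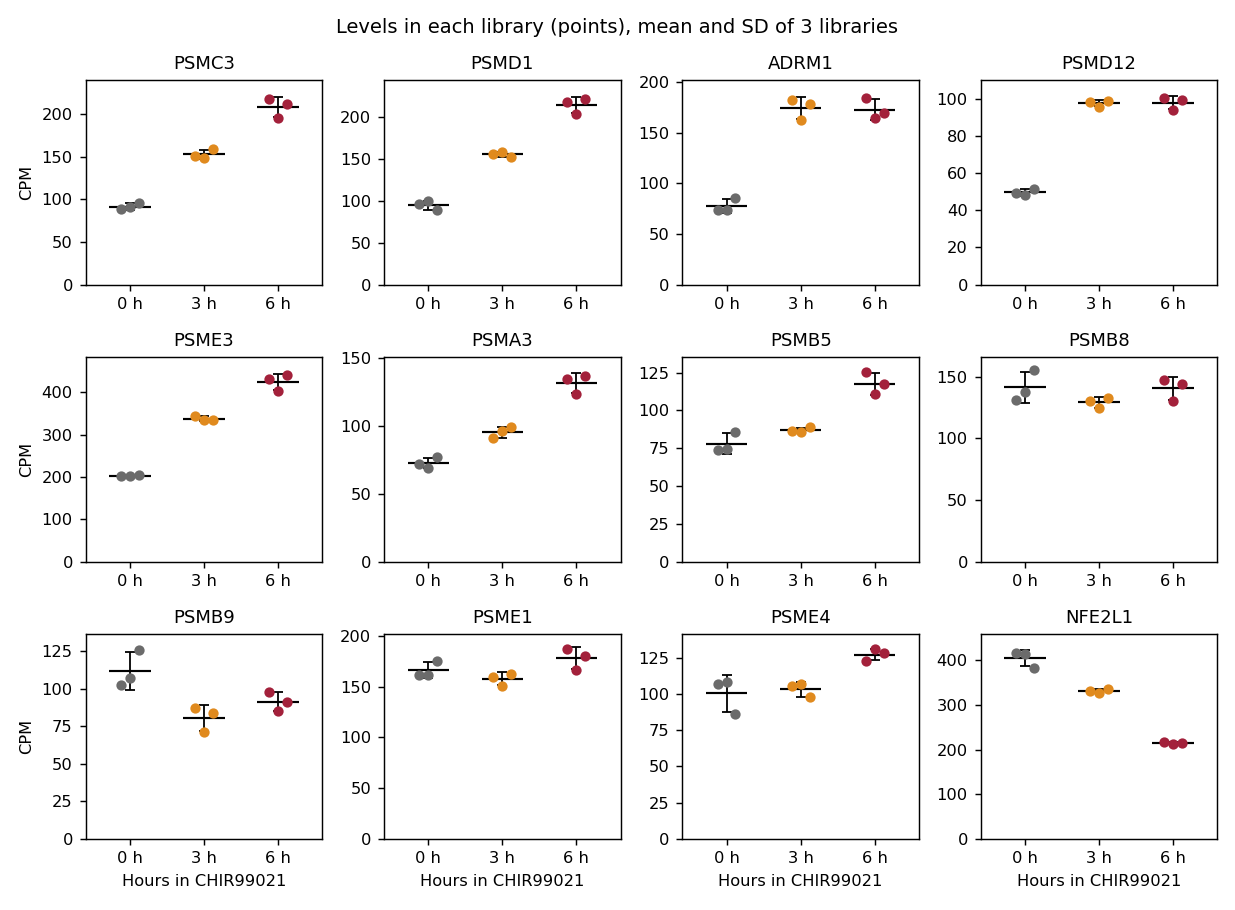
CPM of 12 proteasome genes in each library (points) by hours in CHIR99021, with lines and bars for the mean and SD of 3 libraries, on axes that start at 0. PSMC3, PSMD1, PSME3 and PSMA3 step up at 3 h and again at 6 h, ADRM1 and PSMD12 step up at 3 h and stay level, PSMB5 and PSME4 stand highest at 6 h, PSMB8 and PSME1 overlap between 0 h and 6 h, and PSMB9 and NFE2L1 are lower after treatment.

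The activators differed from each other. PSME1 and PSME2 form the PA28 alpha-beta ring, which interferon induces and which works with the immunoproteasome. PSME1 had 161, 162 and 175 CPM at 0 h, 160, 151 and 163 CPM at 3 h and 187, 167 and 181 CPM at 6 h. The 0 h libraries overlapped both treated groups. Its log2 fold change was -0.07 (SE 0.06) at 3 h and 0.10 (SE 0.06) at 6 h (edgeR adjusted p = 0.269 and 0.121), passing as higher at 6 h without untreated replicate 3 (adjusted p = 0.0209) or without 6 h replicate 10 (adjusted p = 0.0284), and passing as lower, at -0.13, with library size alone (adjusted p = 0.0314). At 3 h it passed as lower with upper-quartile factors (-0.23, edgeR adjusted p = 0.00251) and with library size alone (-0.28, edgeR adjusted p = 0.000405). PSME2 had 117, 119 and 130 CPM at 0 h, 137, 129 and 134 CPM at 3 h and 162, 151 and 158 CPM at 6 h. One 3 h library lay just below untreated replicate 3, and the 6 h libraries lay above all others. The log2 fold change was 0.13 (SE 0.05) at 3 h, with an edgeR adjusted p of 0.047 that DESeq2 did not reach (adjusted p = 0.0521) and a value of -0.08 with library size alone, and 0.36 (SE 0.05) at 6 h (edgeR adjusted p = 2.72e-05). Pseudogenes of PSME2 held reads equal to 16.2% of its own.

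PSME3 is PA28 gamma, a nuclear activator. It had 203, 202 and 204 CPM at 0 h, 345, 334 and 335 CPM at 3 h and 432, 404 and 440 CPM at 6 h. The groups lay far apart at each step. PSME3 was 1.66-fold higher at 3 h and 2.09-fold higher at 6 h, with log2 fold changes of 0.73 (SE 0.05) and 1.07 (SE 0.05) and edgeR adjusted p = 7.77e-09 and 1.66e-10. PSME3 reads per PSME1 read averaged 1.23 ± 0.0526 at 0 h, 2.14 ± 0.0787 at 3 h and 2.39 ± 0.072 at 6 h (SD, n = 3 each), a ratio also chosen after its values were seen, with no overlap between groups and an exact permutation p of 0.1 for each comparison (two-sided, n = 3 each). PSME4, the activator PA200, had 107, 108 and 85.9 CPM at 0 h, 105, 107 and 97.5 CPM at 3 h and 123, 131 and 128 CPM at 6 h. The 0 h and 3 h libraries overlapped, with untreated replicate 3 the lowest, and the 6 h libraries lay above both. The log2 fold change was 0.04 (SE 0.08) at 3 h, which was -0.16 with library size alone and -0.06 without untreated replicate 3, and 0.34 (SE 0.08) at 6 h (edgeR adjusted p = 0.664 and 0.00138). Its call at 6 h was lost with library size alone (0.11, edgeR adjusted p = 0.237).

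NFE2L1, a regulator of the subunit genes, moved opposite to most of them. It had 415, 414 and 383 CPM at 0 h, 331, 327 and 336 CPM at 3 h and 218, 212 and 215 CPM at 6 h. The 3 groups were apart, with the 6 h libraries the lowest and close to each other. NFE2L1 fell by 0.29 (SE 0.05) on the log2 scale at 3 h and by 0.91 (SE 0.05) at 6 h, both against 0 h, and by 0.63 (SE 0.05) at 6 h against 3 h (edgeR adjusted p = 8.16e-05, 6.74e-10 and 2.7e-07). The NFE2L1 protein is held inactive in the endoplasmic reticulum and released by processing, and protein was not measured here.

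The genes that process NFE2L1 or bind DNA with it were examined as a list of 10, of which 6 were higher and 3 lower at 3 h and 6 were higher and 2 lower at 6 h. With upper-quartile factors 4 were higher and 4 lower at both times, and with library size alone 4 and 4 at 3 h and 3 and 4 at 6 h. VCP, the ATPase that extracts NFE2L1 from the membrane, averaged 241 ± 5.02 CPM at 0 h, 463 ± 7.59 CPM at 3 h and 493 ± 26.6 CPM at 6 h (SD, n = 3 each), with log2 fold changes of 0.94 and 1.03. DDI2, the protease that cleaves NFE2L1, had 94.8, 94.4 and 67.9 CPM at 0 h, 195, 206 and 184 CPM at 3 h and 162, 186 and 168 CPM at 6 h, with log2 fold changes of 1.19 and 1.01. Both genes stood above 0 h in every treated library. HERPUD1, a membrane protein of endoplasmic reticulum degradation, was higher by 1.38 at 3 h and 0.95 at 6 h, and MAFF, a small MAF partner, fell by 2.07 and 2.15, with 2.49 CPM at 0 h and 0.591 and 0.558 CPM at 3 h and 6 h.

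Other proteasome genes were counted from lists as well. To set beside these lists and the 10 genes above, 32.8% of all genes tested were higher and 33.5% lower at 3 h. At 6 h the shares were 35.7% and 35%. PSMF1, the inhibitor PI31, was higher by 0.41 at 3 h and 0.66 at 6 h, and SEM1, a small 19S subunit, by 0.28 and 0.45, the value of SEM1 at 3 h not passing with upper-quartile factors or library size alone. PSMA8, an alpha subunit known from testis, fell by 0.38 and 0.72, with 23.6 CPM at 0 h, 18.1 CPM at 3 h and 14.3 CPM at 6 h. PSMB11, the thymus subunit, had 1 read over the 9 libraries and was not tested. Of 9 assembly chaperones, 5 were higher and 1 lower at 3 h, and 5 were higher and 2 lower at 6 h. With upper-quartile factors and with library size alone, 2 were higher and 3 lower at 3 h, and 4 were higher and 2 lower at 6 h; the median of the list at 6 h was 0.13, and it was -0.02 with upper-quartile factors and -0.11 with library size alone. POMP, which matures the core, was higher by 0.33 and 0.52, PSMG1 and PSMG4, which help build the alpha ring, were higher by 0.46 and 0.49 at 6 h, and PAAF1, which binds free 19S ATPases, fell by 0.58 at 3 h and 0.59 at 6 h.

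Of 6 ubiquitin genes and ubiquitin-activating enzymes, 1 was higher and 1 lower at 3 h, and 3 were higher and 2 lower at 6 h. With upper-quartile factors 0 were higher and 2 lower at 3 h and 1 was higher and 2 lower at 6 h, and with library size alone 0 and 3 at 3 h and 1 and 3 at 6 h. UBA1, the main activating enzyme, was higher by 0.62 at 6 h, RPS27A, a ubiquitin fusion gene, by 0.25, and UBA6, the second activating enzyme, fell by 0.24; the value of RPS27A did not pass with upper-quartile factors or library size alone. Of 13 proteasome-bound ubiquitin enzymes and shuttle factors, 10 were higher and 3 lower at 3 h, and 10 were higher and 2 lower at 6 h. With upper-quartile factors 8 were higher and 3 lower at both times, and with library size alone 8 and 3 at 3 h and 7 and 3 at 6 h. The median of these 13 genes at 6 h was 0.34, and it was 0.19 with upper-quartile factors and 0.10 with library size alone. UCHL5, the partner of ADRM1, was higher by 0.63 and 0.76, UBE3C, a ligase that extends chains on the proteasome, by 1.00 and 0.77, and UBQLN4, a shuttle factor, and ZFAND2A, a proteasome-binding stress protein, by 0.48 and 0.70 at 6 h. Of 8 genes of nuclear import of proteasomes and immunoproteasome partners, 3 were higher and 3 lower at 3 h, and 5 were higher and 2 lower at 6 h. With upper-quartile factors 2 were higher and 5 lower at 3 h and 3 were higher and 2 lower at 6 h, and with library size alone 1 and 5 at 3 h and 2 and 3 at 6 h. TAP2, a peptide transporter for antigen presentation, was higher by 0.66 at 6 h and IPO9, an importin, by 0.50, while AKIRIN2, which brings proteasomes to the nucleus, fell by 0.37 and NLRC5, an activator of antigen presentation genes, by 0.52.

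Over all 49 tested genes of these lists, 27 were higher and 12 lower at 3 h and 31 were higher and 11 lower at 6 h. That is 55.1% higher and 24.5% lower at 3 h, beside 32.8% and 33.5% of all genes tested. At 6 h it is 63.3% and 22.4%, beside 35.7% and 35%. With upper-quartile factors the 49 genes split into 17 higher and 18 lower at 3 h and 22 higher and 14 lower at 6 h. Of all 15847 genes tested, 3852 were then higher and 6854 lower at 3 h, and 4352 and 6736 at 6 h. With library size alone the 49 genes split into 16 and 19 at 3 h and 19 and 16 at 6 h. All genes tested then split into 3468 and 7451 at 3 h and 3656 and 7504 at 6 h.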

How the data were processed

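The data are RNA-seq read counts from 9 libraries of Ramos cells in 3 groups (0 h, 3 h and 6 h), with 3 biological replicates each per the labels. The authors deposited raw counts per Ensembl gene; GSNAP 2015-12-31, HTSeq 0.6.0, limma 3.30.0 and the build hg19 are named, without roles, per the submitters' processing notes. The annotation release, strand setting and counting mode are not given in the sources used here. The 5 HTSeq summary entries were set aside (reads in genes made 67.6% to 70.9% of all entries, not uniquely aligned 9.89% to 11.7%, ambiguous 2.53% to 2.76%, without a feature 15% to 17.6%). Symbols were matched for 39539 identifiers.

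Counts were fitted in R 4.3.3 with edgeR 4.0.16: filterByExpr (minimum count 10, minimum total 15) kept 15847 of the 28412 genes that had reads, TMM gave the scaling, and 1 robust quasi-likelihood fit with a separate mean for each time used the 9 libraries together (6 residual degrees of freedom). Tests were two-sided, with Benjamini-Hochberg adjustment over all genes tested and a threshold of 0.05. The common biological coefficient of variation was 6.53%. The limit that 0 reads would set, 3 counts, was 0.0516 to 0.0692 CPM depending on the library, for counting error only. The procedure was also run on simulated counts in which far fewer genes changed than here, so that run does not test the scaling of these libraries.

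Values are printed for the catalytic subunits and their immunoproteasome counterparts, the activators, NFE2L1 and, per role, the 2 members with the largest and the 1 with the smallest change at 6 h, and for up to 4 genes of each other list with the smallest p; PSMD12 was added after its values were seen, and 1 gene that the rule names is not reported here. The members and lists were chosen with earlier results of these data known. Exon overlaps came from GENCODE release 29 and promoters from RefSeq, at the first listed start of each gene. The alternatives tried were other scalings, filters and thresholds, the compared groups alone, each library left out, and the tools limma 3.58.1 (voom) and DESeq2 1.42.0. Figures were drawn with matplotlib 3.10.9.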

Additional observations from a re-analysis of the deposited data

How the results depend on the processing

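No paired analysis was possible because the groups share no replicate numbers. Removal of length and GC trends and the adding of pseudogene reads were chosen after seeing the data. Of 1053 values of single proteasome genes with 1 library left out, 984 kept their direction and their side of the threshold, 46 lost their call, 10 gained one and 13 reversed; of 1404 under other alternatives, 1274 kept both, 94 lost their call, 12 gained one and 24 reversed. DESeq2 called 28 genes higher and 2 lower at 3 h, 35 and 2 at 6 h, and 31 and 1 at 6 h against 3 h. Of all 15847 genes tested, DESeq2 called 5017 higher and 5033 lower at 3 h. At 6 h these were 5445 and 5387, and at 6 h against 3 h 3267 and 3346.

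Both the scaling and a minimum fold moved counts. With upper-quartile factors, 4 genes were lower at 3 h and the medians of the 39 genes were 0.18 at 3 h and 0.47 at 6 h. With library size alone, 19 were higher and 5 lower at 3 h, 4 were lower at 6 h, and the medians were 0.13 and 0.38. With a filter of 1 CPM in 3 libraries the median at 3 h was 0.29. With a minimum fold of 1.2, 18 were higher and 1 lower at 3 h, 1 was lower at 6 h and 6 were higher at 6 h against 3 h. Of all 15847 genes tested, 3453 were then higher and 3808 lower at 3 h. At 6 h 4281 were lower, and 1136 were higher at 6 h against 3 h. At an adjusted p under 0.01, PSMB9 lost its call as lower at 6 h (edgeR adjusted p = 0.0124) and NFE2L1 kept its call. Leaving out 1 library gave medians of 0.30 to 0.39 at 3 h and 0.59 to 0.66 at 6 h, 24 to 33 genes higher at 3 h, and 1 to 2 lower at 6 h. Among all genes tested, 4885 to 5332 were then higher at 3 h and 5304 to 5798 lower at 6 h.

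Directions reversed at 3 h with upper-quartile factors for the median of the activators (-0.069), PSMA2 (-0.013), PSMB6 (-0.0074), PSMC6 (-0.0030), PSMD4 (-0.070), PSME2 (-0.027) and PSME4 (-0.11), and at 6 h for PSME1 (-0.046). With library size alone they reversed at 3 h for the activators (-0.12), PSMA2 (-0.061), PSMA5 (-0.033), PSMB4 (-0.029), PSMB5 (-0.046), PSMB6 (-0.056), PSMC6 (-0.052), PSMD4 (-0.12), PSME2 (-0.076) and PSME4 (-0.16), at 6 h for PSME1 (-0.13), and at 6 h against 3 h for PSMC1 (-0.016) and PSMD12 (-0.031). Without a filter, PSMB8 and the immunoproteasome median at 6 h were 0.0071. PSME4 at 3 h was -0.0052 with the filter of 1 CPM and -0.070 with length and GC trends removed, where PSMB10 at 3 h was 0.14. PSMD12 at 6 h against 3 h was -0.013 with the compared groups alone. Leaving out 1 library gave -0.078 to 0.057 for PSMB10 and -0.065 to 0.094 for PSME4 at 3 h, -0.066 to 0.058 for PSMB8 and the immunoproteasome median at 6 h, and at 6 h against 3 h -0.093 to 0.13 for PSMC1, -0.011 to 0.032 for PSMD12 and -0.063 to 0.018 for ADRM1. The cause was not tested.

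The increases of PSMA5, PSMA6, PSMB4, PSMB5, PSMC6 and PSME2 at 3 h each lost their call without 1 or more single libraries. At 6 h against 3 h the same held for PSMB1, PSMB4, PSMB6, PSMD4, PSMD11 and PSME1. Counts do not separate reads shared with pseudogenes or overlapping genes, and 3 libraries a group limit the precision.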

Other observations

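The 3 further genes given here had fold changes of opposite sign at 3 h and 6 h, and they were picked after their values were seen. They are not all such genes of the lists, as TAPBP and PSMD10 also had opposite signs. NGLY1, the glycanase that edits NFE2L1, had 85.2, 87.6 and 85.3 CPM at 0 h, 61.2, 67.1 and 61.1 CPM at 3 h and 106, 102 and 109 CPM at 6 h. The 3 h libraries lay below the 0 h libraries and the 6 h libraries above them. It fell by 0.45 at 3 h and was higher by 0.30 at 6 h on the log2 scale (edgeR adjusted p = 3.88e-06 and 0.000151), although the value at 6 h did not pass with library size alone (0.06). NFE2L2, the relative of NFE2L1 that answers oxidative stress, was higher by 0.34 at 3 h (edgeR adjusted p = 1.76e-05) and at -0.09 at 6 h (edgeR adjusted p = 0.0912), where it passed as lower with upper-quartile factors and with library size alone. TAP1, the partner of TAP2 and a neighbour of PSMB9, fell by 0.30 at 3 h (edgeR adjusted p = 0.000157) and was at 0.09 at 6 h (edgeR adjusted p = 0.125), where it passed as lower with library size alone (-0.14, edgeR adjusted p = 0.0129). With length and GC trends removed, TAP1 instead passed as higher at 6 h (0.20, edgeR adjusted p = 0.000253).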
